A study of Mus musculus with 36 samples.

Results

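The cytosolic ribosomal protein genes were followed across hippocampal RNA libraries of the mouse. Members were the table entries whose symbol is Rpl or Rps with a number and at most 1 letter (a, l or x), together with Rplp0, Rplp1, Rplp2 and Rpsa. Pseudogene entries and the ribosomal S6 kinases were left out. This gave 81 genes of 36172 in the table, 49 for proteins of the large subunit and 32 for proteins of the small subunit. The study used Cx3cr1-NuTRAP mice of both sexes, in which a tamoxifen-induced Cre recombinase driven by the Cx3cr1 locus, active in microglia and other macrophages, turns on a tagged copy of the ribosomal protein Rpl10a. Translating ribosome affinity purification (TRAP) then pulls down tagged ribosomes with an antibody to GFP, while input is the cleared homogenate of both hippocampi saved before the antibody was added. All animals shared that genotype. The 4 groups were 10 inputs of young animals (6 months) induced early, 12 inputs of old animals (22 months) induced early, 7 inputs of old animals induced late, and the 7 TRAP libraries of those same late-induced animals. The old late-induced group had 5 females and 2 males, the old early-induced group 7 and 5, and the young group 5 and 5. No group lacked the transgene or the induction, so nothing here separates either of these from the tissue itself, and TRAP of early-induced animals was not analysed here.

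A cytosolic ribosome has a small subunit that reads the messenger RNA and a large subunit that joins the amino acids. Each ribosomal protein is needed in about equal number with the ribosomal RNAs, and cells make the proteins in concert. In mammals their messengers begin with a run of pyrimidines, the terminal oligopyrimidine tract, through which the kinase complex mTORC1 and the protein Larp1 set how strongly they are translated. In the brain, ribosomes are abundant in neurons and are also found in dendrites and in glial processes.

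Promoters of the members the results turn on are shown because the pyrimidine run near the start is the sequence feature these genes are known for. RefSeq (GRCm38.p6) held a promoter for 61 of the 81 members. Each line gives 60 bases before and 30 bases from the annotated start on, read 5′ to 3′ along the gene, and the capitals mark the longest run of C and T in that window within 50 bases upstream or 30 bases downstream of the start. The first lines are Rpl10a, the tagged protein (chr17:28328505-28328594, plus strand), Rps9 (chr7:3703981-3704070, plus strand) and Rpl18 (chr7:45718011-45718100, plus strand), which were higher in TRAP. Rps21 (chr2:180257389-180257478, plus strand) and Rps2 (chr17:24720003-24720092, plus strand) were lower in TRAP. Rps6 (chr4:86857338-86857427, minus strand), Rpl14 (chr9:120571457-120571546, plus strand) and Rpl23 (chr11:97782410-97782499, minus strand) were higher in old inputs.
Rpl10a: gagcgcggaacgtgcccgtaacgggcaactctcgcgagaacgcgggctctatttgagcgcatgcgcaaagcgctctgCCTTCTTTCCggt
Rps9: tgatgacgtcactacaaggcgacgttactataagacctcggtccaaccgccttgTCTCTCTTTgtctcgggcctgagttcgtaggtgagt
Rpl18: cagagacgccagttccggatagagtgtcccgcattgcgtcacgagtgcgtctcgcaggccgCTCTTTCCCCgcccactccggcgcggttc
Rps21: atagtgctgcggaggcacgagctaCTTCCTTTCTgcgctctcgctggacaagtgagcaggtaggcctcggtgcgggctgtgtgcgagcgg
Rps2: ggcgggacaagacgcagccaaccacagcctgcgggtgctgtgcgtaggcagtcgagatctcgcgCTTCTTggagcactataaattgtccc
Rps6: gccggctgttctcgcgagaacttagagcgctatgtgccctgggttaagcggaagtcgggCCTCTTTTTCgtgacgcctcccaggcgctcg
Rpl14: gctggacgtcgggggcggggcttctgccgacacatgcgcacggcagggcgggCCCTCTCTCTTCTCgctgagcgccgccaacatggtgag
Rpl23: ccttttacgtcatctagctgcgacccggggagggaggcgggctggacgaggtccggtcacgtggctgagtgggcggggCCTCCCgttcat
The longest run shown is 14 bases in Rpl14, and the shortest, in Rps2 and Rpl23, are 6 bases each. The runs differ in place: in Rps21, which has 2 annotated starts, it begins 36 bases before the start used here, in Rpl10a 17 bases and in Rpl18 1 base after the first transcribed base.

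Over all 61 promoters, 51 members (83.6%) held a run of at least 8 pyrimidines in the 100 bases around the start, against 39.3% of 27025 genes in the same table. The median longest run was 10 bases in the members and 7 bases in all genes. In the 300-base promoter on either strand, the motif CCGGAAG was present in 42.6% of the members and 9.93% of all genes. CTTTCC, which can lie within a pyrimidine run, was present in 52.5% and 29.3%, and TATAAA in 9.84% and 15.7%. These motifs and the run length of 8 were picked with the sequences in view, and a match is a description of the letters only.

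Library totals lay between 12.9 and 20.4 M counts. A count is an estimated number of reads per gene, and levels are given as CPM, counts relative to the library total, with the total adjusted by TMM, a factor that aligns the bulk of genes between libraries. Of the 81 members, 77 passed the filter on low counts in every comparison. The other 4 included Rpl3l (1 to 15 counts per library), Rpl39l (0 to 40) and Rpl10l (0 to 2), paralogs of Rpl3, Rpl39 and Rpl10 best known from muscle or testis. The fourth, Rps3a, a core small subunit protein, is listed at 0 in all 36 libraries. Such a value can come from how reads were assigned to entries, and it is not read as absence. The members lie on 19 chromosomes, 14 of them on chromosome 7 and 4 on the X. Microglial markers (15 genes) summed to 694.6 to 1026 CPM in the inputs of late-induced animals and 12807 to 20469 CPM in TRAP, while 8 neuronal markers summed to 6448 to 7103 CPM in the matched inputs and still to 5088 to 6553 CPM in TRAP. All 5 endothelial markers were called higher in TRAP, with log2 fold changes of 1.07 to 1.70. TRAP values of genes that all cells use, as these members are, can therefore include RNA of other cells, in a share that was not estimated.

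Per kilobase of transcript, Rpl13a was the most abundant member in young input, at a mean of 837.6 CPM per kilobase. Rpl3 followed with 677.9 and Rplp1 with 646.4, against a median of 233.0 over the 77 members tested. Rps27l was lowest at 21 CPM per kilobase. In TRAP the highest was again Rpl13a, at 992.4. Rps20 came out lowest there, at 26.6, but the transcript length used for it, 3706 bases, exceeds its deposited span (3834473 to 3835600). Its rank per kilobase is therefore not reliable, and without length it measured 77.8 to 117.1 CPM in TRAP. Lengths were medians over annotated coding transcripts. The levels are thus spread widely although the proteins are used in about equal number. Of the members' nonzero values, 97.8% were not whole numbers, and how the counter treated reads that match processed pseudogenes is not given in the sources used here, so single levels are uncertain.

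As a share of all counts, the members took up 1.46 ± 0.05% in young input (SD, n = 10), with 1.42% as the lowest, 1.45% as the median and 1.57% as the highest library. Old early-induced inputs held 1.65 ± 0.16% (SD, n = 12), from 1.48% through a median of 1.60% to 2.06%. Old late-induced inputs held 1.72 ± 0.11% (SD, n = 7), from 1.52% through 1.73% to 1.85%. Both old groups had higher means than the young group, and both overlapped it through their lowest libraries. TRAP held 1.74 ± 0.16% (SD, n = 7), from 1.50% through 1.77% to 1.93%, a range that covered all 7 matched inputs. The ratio of small to large subunit counts was 0.595 in young, 0.594 in old early-induced, 0.592 in old late-induced input and 0.571 in TRAP.

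**Figure D1:**
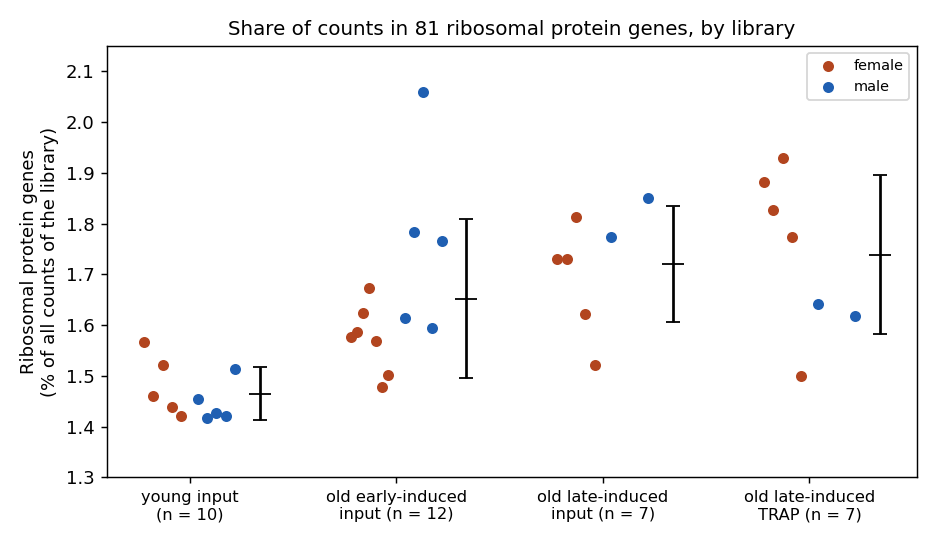
Share of all counts, in percent, that fell on the 81 ribosomal protein genes in each library (vertical axis, which starts above 0), by group and sex. Points are libraries and black marks are the mean ± SD of the group. Young inputs lie between 1.42% and 1.57%, and 1 old early-induced male stands apart at 2.06%.

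The library at 2.06% was replicate 5 of the old early-induced group, a male. It also had the highest summed blood markers of all libraries, 1415 CPM over 3 hemoglobin and erythroid genes, against a group median of 162.0. Without it the old early-induced mean was 1.62 ± 0.10% (n = 11). The part of blood in the members' level was not tested. In whole tissue, a change in the number of cells of a type and a change in RNA per cell cannot be told apart.

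The comparison of TRAP with input asked how these genes behave in ribosome-bound RNA of the tagged cells. Rpl10a (identifier 19896, chromosome 17, 28328471 to 28331033 in the deposited coordinates), the L1-stalk protein that carries the tag, measured 131.7 to 157.3 CPM with a median of 147.6 in the 7 inputs. In the 7 TRAP libraries it measured 233.1 to 327.5 CPM with a median of 281.7. Every TRAP library was above every input, and the log2 fold change was 0.92 ± 0.08 (SE), with an adjusted p of 2.41e-08 in edgeR's quasi-likelihood test. This and all adjusted p-values of gene comparisons below come from that test with Benjamini-Hochberg adjustment over all genes tested, and a gene was called at an adjusted p under 0.05. Whether reads of the tagged copy were assigned to the Rpl10a entry is not given in the sources used here.

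Relative to the other members, Rpl10a held 0.867 ± 0.033% of ribosomal protein counts in input (SD, n = 7) and 1.50 ± 0.06% in TRAP. The input libraries ranged from 0.819% to 0.906% and the TRAP libraries from 1.40% to 1.59%, with no overlap. The log2 ratio to the other members rose by 0.80 on average, by 0.68 to 0.94 in each animal, which is 1.74-fold and positive in 7 of 7 animals. The exact two-sided sign-flip permutation test gave p = 0.0156, the smallest that 7 animals allow, and 0.0625 after adjustment over 4 such comparisons, so it does not pass 0.05 when adjusted. In the inputs this share stood at 0.866 ± 0.033% in young (n = 10) and 0.843 ± 0.023% in old early-induced animals (n = 12). The permutation tests on the log2 ratio gave adjusted p-values of 0.106 for old early-induced against young, 0.956 for old late-induced against young and 0.106 between the old groups.

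**Figure D2:**
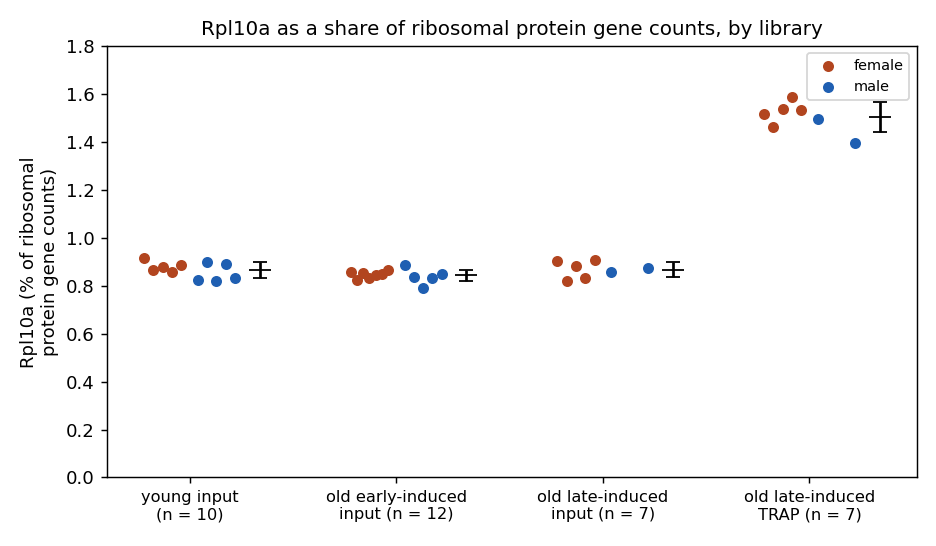
Rpl10a counts as a percent of the counts of all ribosomal protein genes (vertical axis), by library, group and sex. Points are libraries and black marks are the mean ± SD. TRAP libraries lie between 1.40% and 1.59%, and the inputs of all 3 groups lie below 0.92%.

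Of the 77 members, 27 were called higher in TRAP and 7 lower, and 43 were not called. Among all 14596 genes tested, 59.2% were called, 30.4% higher and 28.8% lower, so the members' share of calls was below that of all genes. The median log2 fold change was 0.07 for the members and -0.02 for all genes, while the 15 microglial markers had 3.89 to 4.45. In the large subunit 18 of 46 tested members were called higher and 4 lower, and in the small subunit 9 of 31 and 3. The members spanned -0.52 to 0.94, so they did not move as 1 block.

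The split between higher and lower calls depended on the scaling. With upper quartile scaling 14 members were called higher and 29 lower (22.5% and 43.7% of all genes), with a member median of -0.07 and a median of -0.16 over all genes. With library size alone the counts were 17 and 25 (24.4% and 39.4% of all genes). A scaling factor multiplies all genes of a library alike, so the distances between members are less touched by that choice than their signs.

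Rps27l, a paralog of Rps27 known as a target of p53, had the largest fold change. It measured 9.31 to 15.6 CPM in input and 18.1 to 28.4 CPM in TRAP, with medians of 11 and 22.4. The groups did not overlap, and the log2 fold change was 0.94 ± 0.13 (adjusted p = 1.27e-05). Its parent Rps27, from 58.8 to 70.6 CPM in input and 50.5 to 74.1 CPM in TRAP, overlapped between fractions, with a log2 fold change of -0.12 and an adjusted p of 0.217. The 2 entries can share reads, so the level of the rarer one is the less certain.

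Rps9, a protein of the small subunit near the entry of the messenger, measured 202.8 to 256.8 CPM in input and 338.2 to 514.7 CPM in TRAP. All TRAP libraries were above all inputs, with a log2 fold change of 0.86 ± 0.09 (adjusted p = 4.80e-07). Rpl7, of the large subunit, went from 241.5 to 285.1 CPM in input to 354.5 to 466.1 CPM in TRAP, again without overlap (log2 fold change 0.61 ± 0.07, adjusted p = 1.05e-06). Rpl18 measured 140.5 to 168.4 CPM in input and 190.1 to 262.0 CPM in TRAP (log2 fold change 0.51 ± 0.07, adjusted p = 1.66e-05). Rpl10a, Rps9 and Rps27l stood 0.79 or more above the member median, a gap that Rpl7 at 0.54 above it did not reach.

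Rps21, a small subunit protein, was the lowest member. It measured 148.7 to 191.4 CPM in input and 93.4 to 141.6 CPM in TRAP, medians 167.4 and 115.8, without overlap (log2 fold change -0.52 ± 0.09, adjusted p = 6.68e-05). Rps2, at the entrance of the messenger channel, also lay without overlap, from 433.6 to 488.7 CPM in input and 299.2 to 427.6 CPM in TRAP (log2 fold change -0.33 ± 0.07). Rplp1, an acidic stalk protein, measured 318.3 to 402.9 CPM in input and 243.9 to 355.3 CPM in TRAP, with overlap (-0.34 ± 0.08, adjusted p = 2.26e-03). Rpl35, next to the exit tunnel, and Rpl14 were called lower by smaller amounts, with log2 fold changes of -0.26 and -0.21.

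**Figure D3:**
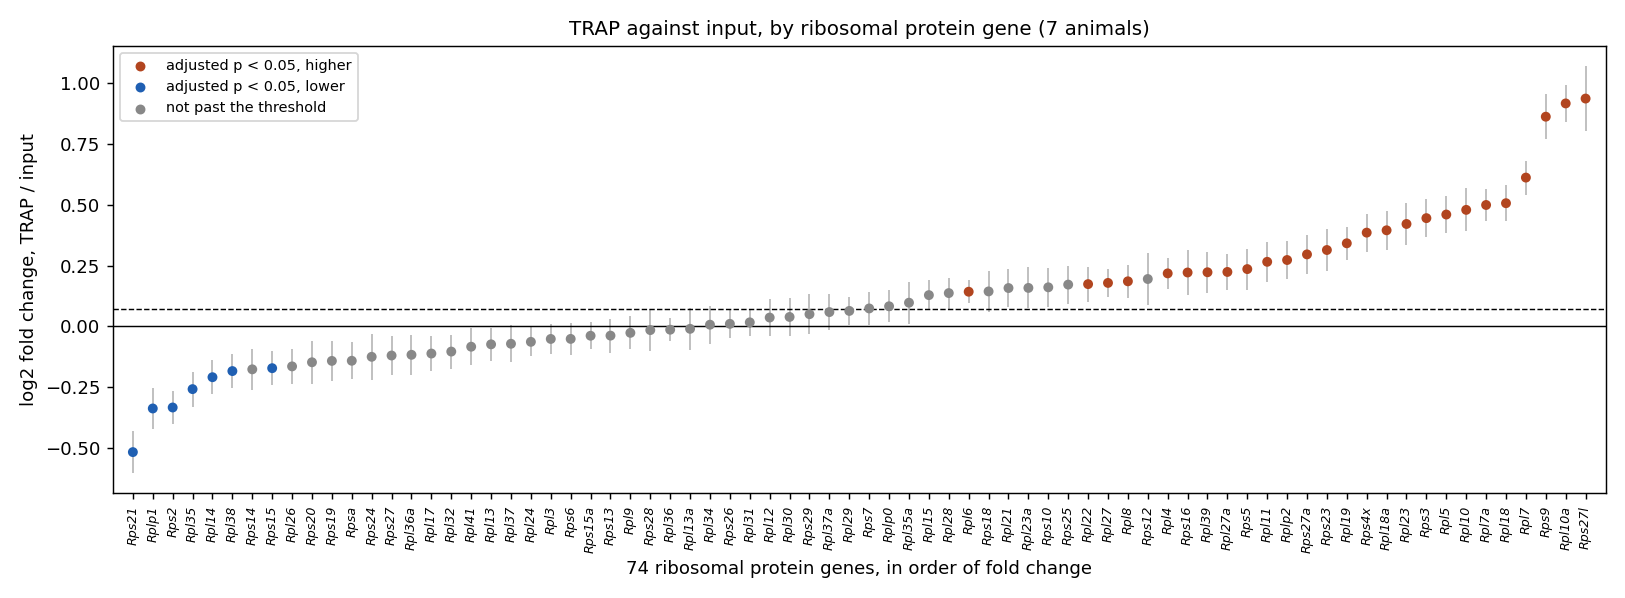
Log2 fold change of TRAP over input (vertical axis) for 74 of the 77 tested ribosomal protein genes, ordered by value, with the standard error as bars. Colours mark genes called higher or lower, the solid line is 0 and the dashed line is the median of 0.07 over all 77. Rps27l, Rpl10a and Rps9 stand apart at the top and Rps21 at the bottom.

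Proteins that sit together in the ribosome did not always go together. Of the stalk, which binds the elongation factors, Rplp1 was called lower, Rplp2 was called higher (log2 fold change 0.27, adjusted p = 6.39e-03) and Rplp0 had 0.08 (adjusted p = 0.287). Rpl5 and Rpl11, which carry the 5S RNA and can bind Mdm2, were both called higher, with 0.46 and 0.27. Of 8 proteins around the exit tunnel 3 were called higher and 1, Rpl35, lower. Of all genes tested, 30.4% were called higher and 28.8% lower, so counts in these small groups are a description only. Rps27a, made as a fusion with ubiquitin, had 0.30 (adjusted p = 4.71e-03). Of the 4 X-linked members Rpl10 (0.48), Rps4x (0.39) and Rpl39 (0.22) were called higher, and Rpl36a had -0.12 (adjusted p = 0.236).

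Counted by animal, 21 members were higher in TRAP in 7 of 7 animals, where 27.4% of all genes tested were, and 7 members were lower in 7 of 7, where 23.6% were. Complete separation of the 7 TRAP libraries from the 7 inputs was seen for 13 members in the higher direction and 2, Rps21 and Rps2, in the lower, against 19.6% and 10.5% of all genes. The members' medians differed between animals. The median log2 difference of TRAP and input over the 77 members was -0.09 and -0.15 in the 2 males and 0.01, 0.16, 0.19, 0.21 and 0.22 in the 5 females. With the animal as a block, 33 members were called higher and 11 lower, where 31.9% and 32.1% of all genes were. The lower ones were Rps21, Rplp1, Rps2, Rpl35, Rpl14, Rpl26, Rpl38, Rps14, Rps15, Rps20 and Rpsa, of which the last, Rpl26, Rps14 and Rps20 were not called without the block.

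The members varied together between libraries. Over the 7 TRAP libraries the median correlation between pairs of members, on log2 CPM, was 0.92. Over the deviations of the 29 inputs from their group means, which leave differences between the sexes in, it was 0.79. The pairs share library, depth and scaling, and the values are a description. Rps15a followed the others least in the inputs, with a median of 0.53, and Rpl6 least in TRAP, with 0.59.

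The comparison of old with young inputs at early induction asked how these genes differed with age in whole hippocampus. Both groups are labelled as induced early, so the time since induction differs along with age, and these cannot be told apart. All 77 tested members had a positive log2 fold change, from 0.07 to 0.24, and 69 were called higher and 0 lower. Among all 14948 genes tested, 25.6% were called, 13% higher and 12.6% lower. The median was 0.17 for the members and 0.01 for all genes. At an unadjusted p under 0.05 there were 76 members, all with positive values, and DESeq2 and limma voom also called none lower.

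Rps12, a small subunit protein, had the largest value. It measured 133.2 to 165.9 CPM in young input, median 143.1, and 146.6 to 215.2 CPM in old early-induced input, median 167.6. The groups overlapped, and the log2 fold change was 0.24 ± 0.05 (adjusted p = 4.10e-04). Rps10 measured 121.1 to 139.6 CPM in young and 134.3 to 191.8 CPM in old early-induced input, overlapping a little (0.24 ± 0.04, adjusted p = 1.31e-04). Rps6, the classical substrate of the S6 kinases, measured 251.9 to 288.4 and 268.4 to 396.2 CPM (0.23 ± 0.04). Rps24, mutated in some forms of Diamond-Blackfan anemia, and Rpl23, on the face that meets the small subunit, both had 0.23.

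Separation was rarer. The old early-induced libraries lay wholly above the young ones in 3 members, among them Rpl14 and Rpl3, which is to be read against 0.85% of all genes tested. Rpl14 measured 196.8 to 218.5 CPM in young and 219.0 to 286.0 CPM in old early-induced input (log2 fold change 0.23 ± 0.04, adjusted p = 4.92e-05). Rpl3, next to the peptidyl transferase centre, measured 523.1 to 579.4 and 580.9 to 688.6 CPM, and had the smallest adjusted p of all members at a log2 fold change of 0.19 ± 0.03 (adjusted p = 2.47e-05). Rpl6 had 0.22 ± 0.04 (adjusted p = 4.79e-05).

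Among the members not called were Rps20, Rpl22, Rplp2, Rps26, Rpl23a and Rps29, with adjusted p-values of 0.0539 to 0.0812 and log2 fold changes of 0.10 to 0.16, and Rps27l, with 0.07 and an adjusted p of 0.693. Rps27l is the rarest tested member per kilobase and had the widest error, 0.12. Rpl10a was called at 0.13 ± 0.04 (adjusted p = 0.0118), from 116.7 to 140.9 CPM in young to 125.8 to 160.3 CPM in old early-induced input, with overlap. The stalk had 0.17 for Rplp0 and 0.19 for Rplp1, both called, and 0.14 for Rplp2. Rpl5 (0.20), Rpl11 (0.13), Rps27a (0.15) and the X-linked Rpl10 (0.15), Rpl39 (0.16), Rps4x (0.22) and Rpl36a (0.17) were all called higher. Without old early-induced replicate 5, 59 members were called at a median of 0.14 (22.1% of all genes were called), and Rpl11, Rps27a, Rpl39 and Rpl36a were no longer among them.

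Sex entered this comparison. Fitted in females alone, the members had a median of 0.09, from -0.09 to 0.17, and 2 were called, Rpl3 (0.15) and Rpl17 (0.15), where 8.06% of all genes were called in females. Fitted in males alone, they had a median of 0.27, from 0.12 to 0.40, and 62 were called, where 14.9% of all genes were called in males. The male value was the larger in 77 of 77 members. In the test of the difference itself, the interaction of age and sex over the 22 early-induced inputs, 0 members and 0 genes in all were called by edgeR, the smallest adjusted p of a member was 0.217, and 46 members had an unadjusted p under 0.05, as had 2272 of 14547 genes. A difference between the sexes was therefore not shown by this test, and a p above the threshold does not show that the sexes were alike. The share of counts was 1.48 ± 0.06% in young females and 1.57 ± 0.07% in old early-induced females (n = 5 and 7), and 1.45 ± 0.04% and 1.76 ± 0.19% in the males (n = 5 each), or 1.69 ± 0.10% without replicate 5.

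**Figure D4:**
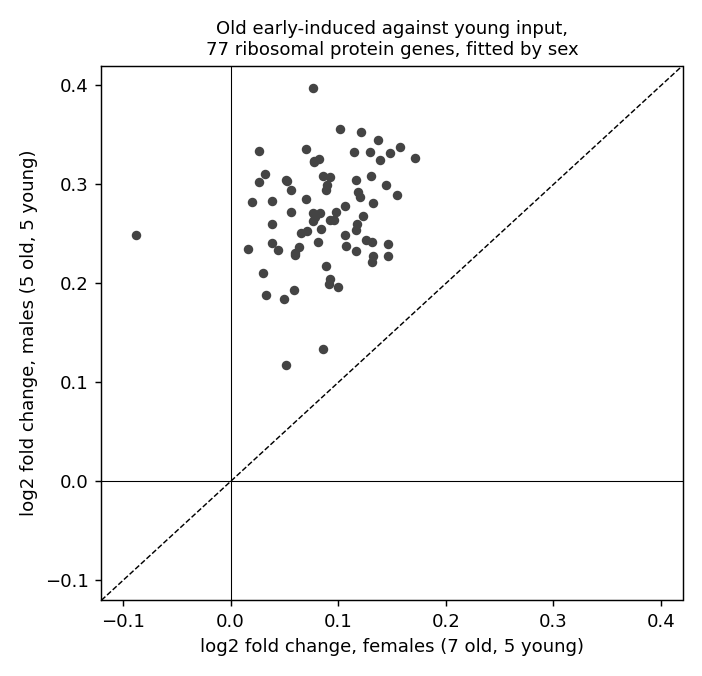
Log2 fold change of old early-induced over young input for each of the 77 tested ribosomal protein genes, fitted in females (horizontal axis) and in males (vertical axis). Points are genes and the dashed line marks equal values. All points lie above the line, with medians of 0.09 in females and 0.27 in males.

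Old late-induced inputs against the same 10 young inputs gave larger values. All 77 members were positive, from 0.08 to 0.36 with a median of 0.24 (0.01 over all genes), and 73 were called higher and 0 lower. Of all genes tested, 34.5% were called, 17% higher and 17.5% lower. By the same test 76 members had an unadjusted p under 0.05, all positive. The comparison shares its young libraries with the preceding one, and the induction age differs as well as the age, so age and induction cannot be told apart within it.

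Rpl23 had the largest value. It measured 165.6 to 193.3 CPM in young input, median 182.3, and 209.5 to 247.1 CPM in old late-induced input, median 233.8, with no overlap (log2 fold change 0.36 ± 0.05, adjusted p = 5.39e-06). Rpl41, which encodes a very short protein, measured 235.7 to 277.1 and 277.2 to 340.9 CPM, also without overlap (0.32 ± 0.07). Rps6 measured 251.9 to 288.4 and 288.4 to 348.3 CPM, so that its groups met, at 0.31 ± 0.05. Rpl14 (0.30 ± 0.04, adjusted p = 4.34e-06) was separated as well, and Rps4x had 0.31 ± 0.05. In all, 11 members lay wholly above the young libraries, where 2.39% of all genes did, among them also Rpl5, Rpl6, Rpl7a, Rpl12, Rpl17, Rpl28 and Rpl31.

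Rpl10a had 0.24 ± 0.05 here (adjusted p = 1.64e-04), from 116.7 to 140.9 CPM in young to 131.7 to 157.3 CPM in old late-induced input. The members not called were Rpl22 (0.12), Rps15a (0.08), Rps29 (0.15) and Rps27l (0.25, adjusted p = 0.147). All 3 stalk genes were called, with 0.19 to 0.25, as were Rpl5 (0.29), Rpl11 (0.20) and Rps27a (0.22). In females alone 54 members were called, at a median of 0.18, where 18.8% of all genes were called.

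Between the old late-induced and the old early-induced inputs no member was called. Of all genes, 0.0334% were called in either direction, which is 5 genes. Of the members 76 of 77 had positive values, with a median of 0.07, and 8 had an unadjusted p under 0.05, where 11.6% of all genes had. DESeq2 called 0 members too. Without old early-induced replicate 5 edgeR called 4 members, where 1.1% of all genes were called. Among the 4 were Rpl23 (0.16) and Rpl5 (0.12), which are named here after their values were seen. Rpl10a had 0.10 ± 0.04 (adjusted p = 0.347).

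Males against females over all 29 inputs gave positive values for 77 of 77 members, with a median of 0.08 and a highest value of 0.22 in Rps27l. No member was called, while 0.174% of all genes were, and 40 members had an unadjusted p under 0.05, as had 10.9% of all genes. Without old early-induced replicate 5 the median was 0.05. The 4 X-linked members had 0.04 to 0.09.

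Transcript length moved with age across the other genes. Genes outside the members were put in bins by transcript length, a step added after the main values were seen. In old early-induced against young inputs the median log2 fold change was 0.06 under 700 bases and -0.08 over 4000 bases, and 18.3% and 6.47% of the genes were called higher. In old late-induced against young inputs the medians were 0.09 and -0.11. The tested members have a median transcript length of 696.5 bases, and their medians of 0.17 and 0.24 lay above those of the other short genes. The part of length in the members' values was not tested further. Markers of microglia, oligodendrocytes, astrocytes, mural cells and blood also moved with age in the same inputs. The 15 microglial markers summed to 490.1 to 564.8 CPM in young, 652.0 to 789.9 CPM in old early-induced and 694.6 to 1026 CPM in old late-induced inputs, and 14 and 15 of them were called higher. The 7 oligodendrocyte markers had medians of 3645, 4489 and 5527 CPM in the same order, and 6 and 7 were called higher. Of 7 astrocyte markers 3 were called higher in each old group, with log2 fold changes of up to 0.84 and 1.03, and of 4 mural markers tested 2 were. The 3 blood markers had medians of 128.3, 162.0 and 336.5 CPM, and 1 and 3 were called. Other lists fell or varied. Neuronal markers (8 genes) had 1 called higher and 0 lower in old early-induced inputs, and 0 and 2 in old late-induced inputs. Endothelial markers (5 genes) had 1 called higher and 0 lower in each old group. Border macrophage markers (6 genes) had 0 called in old early-induced inputs, and 1 higher and 1 lower in old late-induced inputs. Of 6 hippocampal markers 3 were called lower in each old group, and of 4 neurogenesis and proliferation markers 4 and 1. Of 4 oligodendrocyte precursor markers 2 were called lower and 1 higher in each. The 4 choroid plexus markers had medians of 1985, 108.0 and 1997 CPM, and 0 were called. Of all genes, 13% and 17% were called higher and 12.6% and 17.5% lower. The part of these lists in the members' values was not tested.

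**Figure D5:**
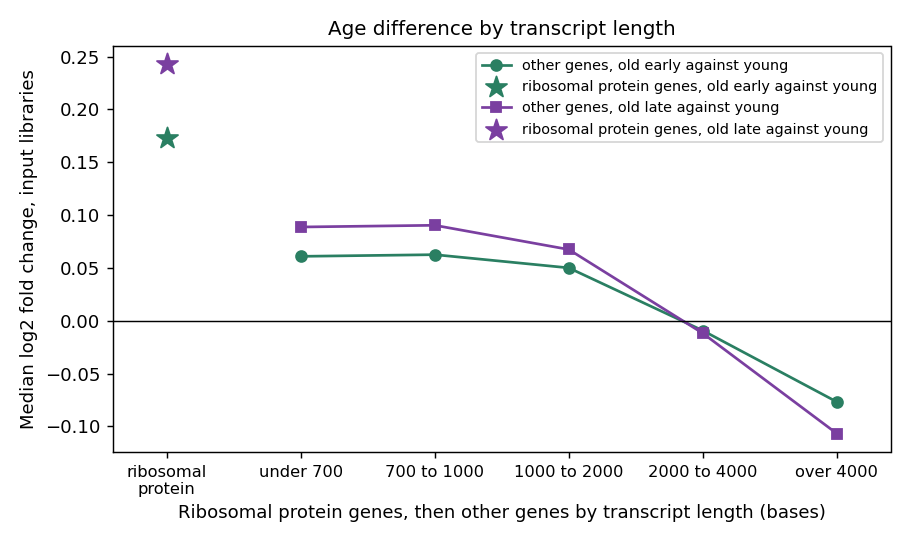
Median log2 fold change of old over young inputs (vertical axis) for the ribosomal protein genes (stars) and for other genes in bins of transcript length (circles and squares), for both old groups. Values of the other genes run from 0.06 and 0.09 under 700 bases to -0.08 and -0.11 over 4000 bases, and the stars lie at 0.17 and 0.24.

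Entries of cytosolic ribosomal proteins outside the rule were seen in the same fits. Fau, which encodes a ubiquitin-like protein fused to a small subunit protein, had 0.21 and 0.27 in the 2 age comparisons and 0.72 in TRAP, and was called in each. Gnb2l1, the scaffold protein also named Rack1, had 0.11, 0.17 and 0.57, also called in each. Rpl22l1, a paralog of Rpl22, was called lower in TRAP at -0.56, and Rpl7l1 higher at 0.76. Of these 6 entries, early-induced old animals had 2 called higher, late-induced ones had 4, and in TRAP 4 were called higher and 1 lower. Of all genes tested, 13% and 17% were called higher in the 2 age comparisons, and 12.6% and 17.5% lower. In TRAP 30.4% were called higher and 28.8% lower. The same shares stand beside the counts of the lists below.

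Other messengers with a terminal oligopyrimidine tract gave 13 of 17 called higher and 0 lower in each age comparison, with medians of 0.12 and 0.15. From this list, Eef1a1, Eef1b2, Eef1d, Eef1g, Eef2, Eif3e, Eif3f, Eif3h, Eif4b and Npm1 are counted again in the elongation, initiation and assembly lists. The counts of these lists are therefore not separate. Vim, an intermediate filament gene of astrocytes and vessels, had 0.75 and 0.97, Npm1, a nucleolar chaperone, 0.19 and 0.23, and Tpt1 0.18 and 0.31. In TRAP, 8 of 17 were called higher and 3 lower, with Pabpc1, the poly(A)-binding protein, at 0.58 and Gas5, a host of small nucleolar RNAs, at -0.83. Of the 9 elongation genes 5 were called higher and 1 lower in old early-induced and 6 and 0 in old late-induced inputs. Eef1b2 had 0.16 and 0.21 and Eef1a1 0.14 and 0.17, whereas Eef1a2, the form of neurons and muscle, was called lower in the first at -0.14. In TRAP, Eef2k, the kinase that inhibits elongation factor 2, had 1.44.

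Of 29 initiation genes tested, 12 were called higher and 2 lower in old early-induced inputs and 11 and 1 in old late-induced inputs. Of all genes, 13% and 12.6% were called in these directions in the first and 17% and 17.5% in the second. Eif2s2 had 0.16 and 0.24, while Eif4g1, the scaffold of cap-dependent initiation, was called lower at -0.14 and -0.13. In TRAP, Eif4a1 had 0.31 and its relative Eif4a2 -0.32, and in all 13 were called higher and 1 lower. Of 34 ribosome assembly genes 3 were called higher and 7 lower in old early-induced inputs, and 6 and 8 in old late-induced inputs. Ncl and Sbds, which acts late in large subunit assembly, were called higher at 0.18 and 0.15 in the first, and Nvl (-0.43), Heatr1 (-0.38) and Nop2 (-0.27) lower. The assembly genes thus went in both directions in comparisons where members were called in 1. In TRAP 17 of the 34 were called higher, led by the helicase Ddx21 at 1.23, and 2 lower.

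Of 8 genes of RNA polymerase I, which makes the ribosomal RNA, and its factors, 1 and 2 were called higher with age and 0 lower, Polr1c at 0.17 and 0.22. Of 12 genes of mTORC1 and its regulators, 2 were called higher and 3 lower in old early-induced inputs and 3 and 6 in old late-induced inputs. Eif4ebp1, a translation repressor inhibited by mTORC1, had 0.43 and 0.63, and 2.47 in TRAP. Rps6kb2, a kinase of Rps6, had -0.33 and -0.54, and Mtor itself was called lower in TRAP at -0.87. Genes of the mitochondrial ribosome, which shares no protein subunit with the cytosolic one, were taken by symbol (Mrpl or Mrps). Of these 76, 13 were called higher and 0 lower in old early-induced inputs, where 13% and 12.6% of all genes were, with a median of 0.08. In old late-induced inputs 18 were called higher and 1 lower, where 17% and 17.5% of all genes were, with a median of 0.11 and a highest value of 0.41. In TRAP 13 were called higher and 6 lower, where 30.4% and 28.8% of all genes were.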

How the data were processed

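Polyadenylated RNA of mouse hippocampus was sequenced as input and TRAP. The values that the authors deposited are estimated counts in 1 table, marked raw per the file headers. Per the submitters' processing notes the build was mm10 and DESeq2 was among the tools. The aligner, the counter and the handling of strand are not given in the sources used here. Of the nonzero values 77.4% were not whole, and how the fractions arose was not tested.

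Counts were rounded and tested with edgeR 4.0.16 in R 4.3.3 (filterByExpr with a minimum count of 10, TMM, glmQLFit, glmQLFTest). TRAP against input was fitted on 14 libraries with sex as covariate, and the other comparisons came from 1 fit of 29 inputs with group and sex. Tests across genes were tested on simulated data. The labels number the animals, which pairs each TRAP library with its input. Deviations of such pairs from their group means correlated at 0.308 to 0.470 in 7 pairs, against a median of -0.085 between animals. Permutation tests used scipy 1.17.1, exact or with 100000 resamples. Alternatives were DESeq2 1.42.0, limma 3.58.1 (voom), other scalings, no filter, no sex term, females only, the animal as block and each library left out.

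Named genes were Rpl10a, for each comparison the 5 largest increases, 5 largest decreases and 3 smallest adjusted p among called members, the structural groups, paralogs and X-linked members, and up to 3 called genes in each direction of the other lists. Others are named because they stand apart. Values of 3 members are counted in the totals and are not reported here by name. Members and lists were chosen with earlier results of these data known. Per the labels each input is from a separate animal. The sample numbers in the titles run with the groups, so any order of handling and the groups cannot be told apart.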

Additional observations from a re-analysis of the deposited data

Results flagged for a closer look

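Among 96 sets of values, 4 had a library far from the others of its group, where chance gives about 4.8. Each set was a summary measure or named gene in 1 of 3 groups of 7 or 10 libraries. This search left out the group of 12 libraries from old animals with early induction. Its count therefore does not cover replicate 5 of that group, which held 2.06% of counts in ribosomal protein genes. Young replicate 5 was highest for Rpl10, at 201.9 CPM with the next library at 187.3, for Rps10, at 139.6 CPM against 130.7, and for Rps12, at 165.9 CPM against 147.4. It also had the highest share of counts in ribosomal protein genes of the young group, 1.57%. TRAP replicate 7 was lowest for Rpl6, at 344.4 CPM with the next library at 390.9.

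The median log2 difference of TRAP and input over the ribosomal protein genes was negative in both males, with a mean of -0.12, and positive in all 5 females, with a mean of 0.16. The difference of male minus female, -0.28, was not tested as such. Gene by gene, the interaction of fraction and sex was negative in 77 of 77 members with a median of -0.30. By edgeR 0 members and 0 of 14596 genes were called, while 33 members and 962 genes had an unadjusted p under 0.05. That fit had no term for the animal, so it did not use the pairing of TRAP with input. Its 0 calls therefore do not show that the sexes were alike. With 2 males and members that vary together, the 77 signs are not separate observations. As an unscaled share of counts, female replicate 7 also fell from 1.52% to 1.50%.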

How the results depend on the processing

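For TRAP against input, upper quartile scaling gave 14 members higher and 29 lower (median -0.075) and library size alone 17 and 25 (median -0.038), in place of 27 and 7 (median 0.07). Females only gave 32 higher and 2 lower (Rps21 and Rps2) at a median of 0.16. Of the 14674 genes tested in females, 4265 were called higher and 3595 lower. The replicate block by animal gave 33 higher and 11 lower, where 31.9% and 32.1% of all genes were called. The summed share had a log2 ratio of 0.02, which became 0.23 for the median member and 0.13 with TMM library sizes. For old early-induced against young, females only gave 2 higher at a median of 0.089 and a summed ratio of 0.086, males only a median of 0.27, and Rpl10a relative to the other members was -0.056 in females (permutation adjusted p = 0.0202) in place of -0.039. For old late-induced against young, females only gave a median of 0.18.

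Leaving out 1 library at a time gave 22 to 35 higher and 5 to 15 lower members in TRAP (medians 0.02 to 0.11). The 15 came without TRAP replicate 5. The same step gave 59 to 75 higher for old early-induced against young (medians 0.14 to 0.19) and 72 to 76 for old late-induced against young (0.22 to 0.26). Between the old groups it gave 0 to 4 (0.06 to 0.10). The 59 and the 4 came without old early-induced replicate 5, where 22.1% and 1.1% of all genes were called. With all libraries these shares were 25.6% and 0.0334%. Shares of all genes in the other fits with a library left out are not given here, so those ranges describe the members alone. The cause of these shifts was not tested, except that single-sex fits hold fewer libraries. For 56 values of named genes, 631 of 669 alternative values stayed on the same side of the threshold with the same sign, 38 lost the call and 0 changed sign. The block changed no other count of calls by over 1.5 times.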
